A study of Mus musculus with 3 samples.

Results

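The 28 genes described here make cholesterol, move it within the cell or control its synthesis, and they were described in 5 cell classes of neonatal mouse testis. They were chosen by name from a matrix of 27998 genes, of which 21155 had at least 1 UMI, and all 28 were found. A UMI is a molecular barcode that marks 1 captured transcript. The measurement was droplet single-cell 3' RNA sequencing of dissociated testes from untreated male mice at postnatal day 3 (the dissociation protocol gives 3.5 days post partum). The groups were Cdk2-Y15S (homozygous for the Cdk2 YS allele, a tyrosine-to-serine change at an inhibitory phosphorylation site of the cell cycle kinase Cdk2), Cdk2-HET (1 YS allele) and Cdk2-WT (no YS allele), with 1 library each. All were on a mixed background of the strains B6(Cg)-Tyrc-2J/J and FVB/NJ, from crosses of animals heterozygous for the YS allele. The number of animals per suspension is not stated in the labels. The counts were taken near transcript ends and cannot read the substitution, so the genotype labels were not checked.

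Cholesterol is built from acetyl-CoA in a long chain of enzyme steps. The mevalonate branch joins acetyl-CoA units into isoprenoid units, squalene synthase pairs these into squalene, and the sterol branch closes squalene into lanosterol and trims it to cholesterol. When membrane sterol is low, Scap carries the transcription factors encoded by Srebf1 and Srebf2 from the endoplasmic reticulum to the Golgi, where they are cut and released to the nucleus, and the Insig proteins hold Scap back when sterol is plentiful. Many synthesis genes are known targets of the Srebf factors, together with the factor NF-Y. Abca1 exports cholesterol and is a known target of the oxysterol receptors (LXR). In the testis, Leydig cells turn cholesterol into androgens, which begins with the transfer of cholesterol into mitochondria. Sertoli cells enclose and nourish the germ cells, peritubular myoid cells wrap the cords, and stromal cells fill the interstitium.

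Start regions of members that the results turn on are printed to show the letters known for sterol control. RefSeq windows on GRCm38.p6, from 250 bases before to 50 bases after each transcript start, were matched to 23 of the 28 members (31 windows). Hmgcs1 and Abca1 are printed whole because they differed most between Leydig cells and the other somatic classes. Shorter stretches show the sterol element core in Insig1 and Acat2 and the site of the steroidogenic factor SF-1 in Dhcr7. Capitals mark TCACNCCAC or its core CACNCCAC (sterol regulatory element), CCAAT (NF-Y box) and CAAGGTCA (SF-1 site), read on either strand and printed 5' to 3' along the gene. In the short stretches only the named motif is in capitals.
Hmgcs1, chr13:119690101-119690400, plus strand: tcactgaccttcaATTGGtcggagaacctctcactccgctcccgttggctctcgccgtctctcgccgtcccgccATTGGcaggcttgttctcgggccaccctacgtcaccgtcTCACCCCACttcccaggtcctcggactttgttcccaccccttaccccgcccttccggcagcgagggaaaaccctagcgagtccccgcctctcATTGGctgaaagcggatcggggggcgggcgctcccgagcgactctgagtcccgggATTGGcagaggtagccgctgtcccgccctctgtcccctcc
Abca1, chr4:53159846-53160145, minus strand: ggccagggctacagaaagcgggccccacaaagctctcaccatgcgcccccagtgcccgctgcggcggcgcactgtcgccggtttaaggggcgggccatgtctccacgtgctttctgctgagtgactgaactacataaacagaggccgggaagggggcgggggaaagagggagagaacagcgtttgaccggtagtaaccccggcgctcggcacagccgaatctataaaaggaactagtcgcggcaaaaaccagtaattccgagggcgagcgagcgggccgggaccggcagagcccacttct
Insig1, chr5:28071388-28071425, plus strand: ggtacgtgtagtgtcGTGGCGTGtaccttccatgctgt
Acat2, chr17:12960884-12960921, minus strand: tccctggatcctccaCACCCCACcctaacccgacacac
Acat2, chr17:12960756-12960793, minus strand: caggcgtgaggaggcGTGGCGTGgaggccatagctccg
Dhcr7, chr7:143823100-143823137, plus strand: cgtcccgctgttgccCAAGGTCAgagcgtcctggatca

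The long sterol element TCACNCCAC stood in the Hmgcs1 window and in no other of the 23 matched members. It is held by 1.44% of the 27025 genes with such windows. Its core CACNCCAC, which the long form contains, was found in Acat2, Hmgcs1 and Insig1, against 7.12% of genes. CCAAT stood in 20 of the 23 members, against 41.1% of genes, and the Hmgcs1 window held 4 copies. CAAGGTCA was found in Dhcr7 among the members and in 1.76% of genes. The Abca1 window held none of these letters. The Hmgcs1 gene lies at chr13:119690379-119708260, plus strand, Abca1 at chr4:53030787-53159895, minus strand, Insig1 at chr5:28071363-28078662, plus strand, Acat2 at chr17:12942890-12960747, minus strand, and Dhcr7 at chr7:143823145-143848410, plus strand (GRCm38). The matches describe letters in these windows and do not show that a factor binds there.

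The libraries held 4403 cells and 28651691 UMIs in Cdk2-Y15S, 4958 cells and 32025077 UMIs in Cdk2-HET, and 5061 cells and 30624473 UMIs in Cdk2-WT. Classes were cut by marker UMIs that include none of the 28 genes: at least 10 UMIs of Cyp11a1, Cyp17a1 and Hsd3b1 for Leydig cells, at least 3 UMIs of Amh, Sox9, Cldn11 and Inha with at most 2 collagen and Dcn UMIs for Sertoli cells, and at least 5 collagen and Dcn UMIs for the interstitium. The interstitial cells were split at 8 UMIs of Acta2, Myh11 and Tagln into myoid and stromal cells, and the germ cells were the 141 cells that the authors deposited as such, none of them from Cdk2-HET. This gave 73 Leydig cells in Cdk2-Y15S, 76 in Cdk2-HET and 77 in Cdk2-WT, with 6180 Sertoli, 4863 stromal and 2292 myoid cells in all. Germ cells numbered 72 in Cdk2-Y15S and 69 in Cdk2-WT, and 720 of 14422 cells fell in no class. The libraries share 87 barcode sequences (174 cells).

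The labels of the somatic classes were checked on markers outside the rule. Leydig markers (Insl3, Star, Ren1, Nr5a1, Lhcgr and Fdx1) summed to 4333 CPM in Cdk2-Y15S, 7192 CPM in Cdk2-HET and 6339 CPM in Cdk2-WT Leydig cells, where CPM is a gene's UMIs per 1000000 UMIs of the class, against at most 297 CPM in any other class. Myoid markers summed to 1896 to 2073 CPM in myoid cells and 435 to 529 CPM in stromal cells. Stromal markers summed to 2422 CPM in Cdk2-Y15S, 2184 CPM in Cdk2-HET and 1700 CPM in Cdk2-WT myoid cells, against 2309.9 to 2878 CPM in stromal cells. The stromal markers thus did not part the myoid and stromal classes cleanly. The Leydig cells were few, and many met another rule: 92 of the 226 also met the Sertoli rule and 75 the collagen rule. This leaves 21, 17 and 21 cells in Cdk2-Y15S, Cdk2-HET and Cdk2-WT when cells of 2 rules are left out. Meeting 2 rules does not by itself show a mixed cell. Sertoli markers outside the rule summed to 292, 508 and 293 CPM in Leydig cells of Cdk2-Y15S, Cdk2-HET and Cdk2-WT, against 5314 to 6100 CPM in Sertoli cells. In stromal and myoid cells they summed to 289 to 443 CPM. Macrophage markers in Leydig cells summed to 282 CPM in Cdk2-Y15S, 312 CPM in Cdk2-HET and 142 CPM in Cdk2-WT, and stromal markers to 277 CPM in Cdk2-Y15S, 244 CPM in Cdk2-HET and 90.4 CPM in Cdk2-WT. The median cell held 6726 to 8999 UMIs in the Leydig class, 16653 to 18461.5 UMIs in the germ class and 5037 to 6257 UMIs in the others, and the median mitochondrial share was 8.56% to 9.16% in Leydig cells, 10.2% to 11.4% in germ cells and 2.68% to 6.75% elsewhere. Values between classes are over libraries of different genotypes, so the spread between libraries holds any genotype difference too. In such summed counts, fewer transcribing cells and less RNA per cell cannot be told apart.

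Leydig cells carried more RNA of nearly the whole pathway than Sertoli, stromal and myoid cells did. Of the 28 members, 25 were higher in Leydig cells by edgeR's quasi-likelihood test (Benjamini-Hochberg adjusted p at most 0.05 over 13994 genes, library as a term), 21 of them at least 2-fold. All 18 synthesis genes were among the 25, and none of the 28 was lower (none at an unadjusted p under 0.05 and none by DESeq2). Over all genes tested, 16.7% were higher and 18.5% lower. Past the test and at least 2-fold, 1403 of the 13994 genes were higher and 1369 lower. The median log2 difference of the members was 1.48, against -0.13 over all genes. Scaled to total UMIs in place of TMM, 25 members were again higher and none lower, with 2753 of all genes higher, 2018 lower and a median over all genes of -0.0059. The level in each of the 3 Leydig sums lay above all 9 Sertoli, stromal and myoid sums for 23 members, against 12% of all genes; the 5 others were Ebp, Insig1, Insig2, Npc2 and Srebf1.

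**Figure D1:**
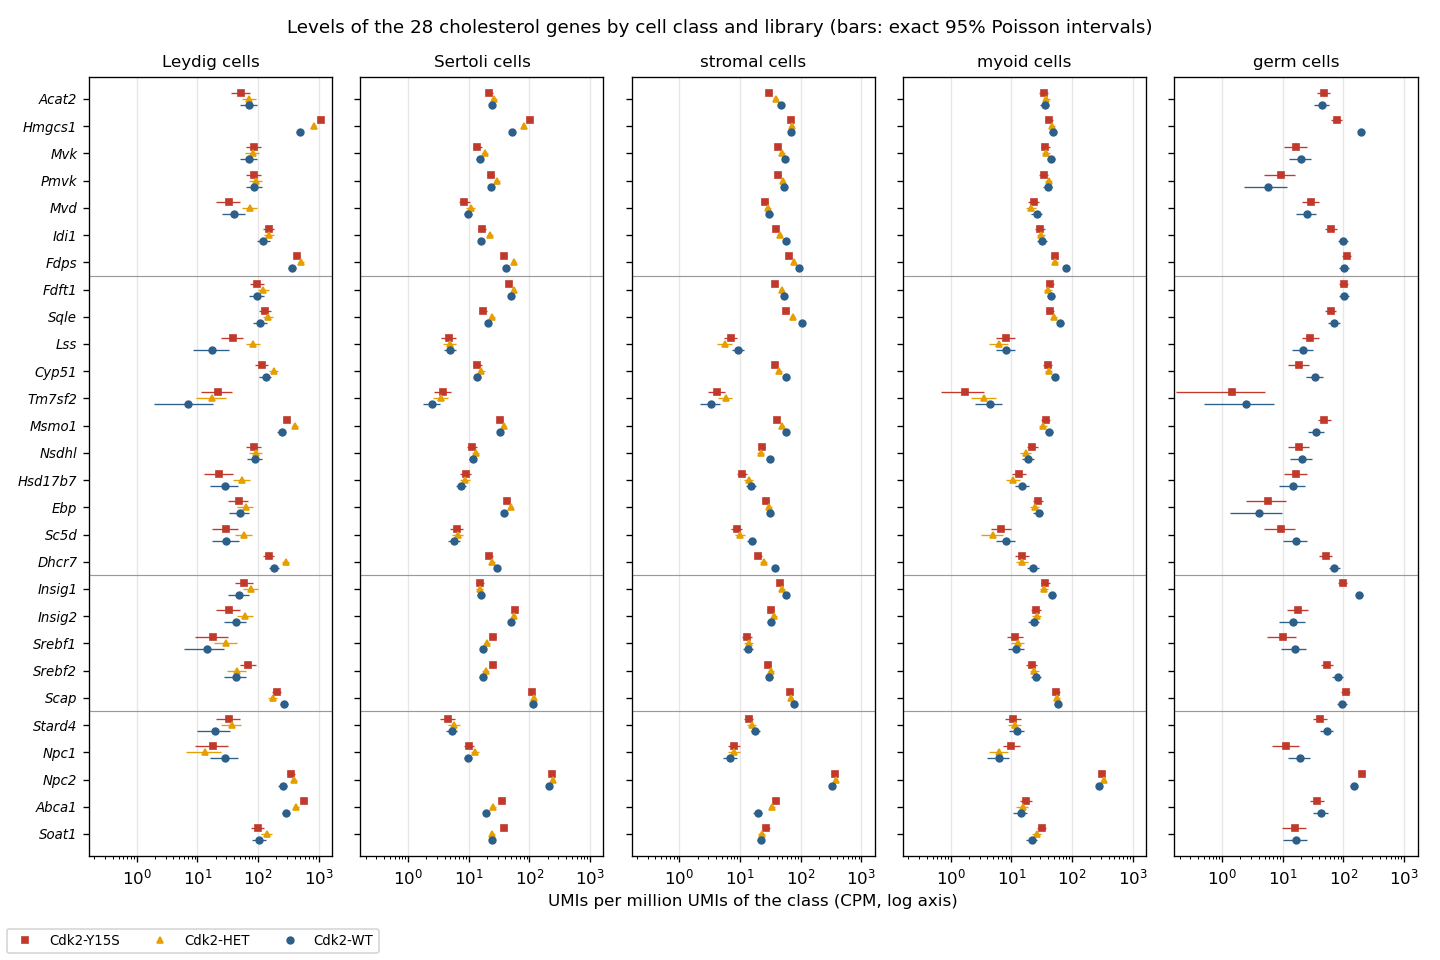
Level of each of the 28 genes (CPM, UMIs per 1000000 UMIs of the class, log axis) in 5 cell classes, with 1 point per library and exact 95% Poisson intervals as bars; grey lines part the mevalonate branch, the squalene and sterol branch, the control genes and the transport genes. Hmgcs1, Fdps, Msmo1 and Abca1 stand far to the right in Leydig cells, and in Leydig cells Cdk2-Y15S has the highest Hmgcs1 point and Cdk2-WT the lowest. Levels of different genes are not compared, since the counts come from transcript ends.

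In the mevalonate branch all 7 genes were higher in Leydig cells. Hmgcs1, the synthase that condenses acetyl-CoA with acetoacetyl-CoA, had 1097 CPM in Cdk2-Y15S, 846 CPM in Cdk2-HET and 486 CPM in Cdk2-WT Leydig cells, against 41.2 to 104 CPM in the 9 Sertoli, stromal and myoid sums, log2 difference 3.55 (SE 0.20, adjusted p = 5.02e-11). The lowest Leydig library stood above the highest of the 9 other sums. Fdps, which joins isoprenoid units into farnesyl diphosphate, had 441 CPM in Cdk2-Y15S, 516 CPM in Cdk2-HET and 362 CPM in Cdk2-WT Leydig cells, against 38.3 to 92.8 CPM in the other 9 sums, log2 difference 2.77 (SE 0.14, adjusted p = 1.09e-11). Idi1, the isomerase of the isoprenoid unit, had 152 CPM in Cdk2-Y15S, 153 CPM in Cdk2-HET and 122 CPM in Cdk2-WT Leydig cells, against 16 to 57.1 CPM, log2 difference 2.15 (SE 0.15, adjusted p = 1.85e-09). These groups of sums did not overlap either. Mvd, which decarboxylates mevalonate diphosphate, had 33 CPM in Cdk2-Y15S, 73.2 CPM in Cdk2-HET and 40.8 CPM in Cdk2-WT Leydig cells, against 8.50 to 30.4 CPM, log2 difference 1.31 (SE 0.21, adjusted p = 6.97e-05). Mvk, mevalonate kinase, had 85.9 CPM in Cdk2-Y15S, 81.3 CPM in Cdk2-HET and 70.9 CPM in Cdk2-WT Leydig cells, against 13.9 to 55.9 CPM, log2 difference 1.23 (SE 0.15, adjusted p = 3.36e-06). Its partner Pmvk, which adds the next phosphate, had 84.2 CPM in Cdk2-Y15S, 92.1 CPM in Cdk2-HET and 86.9 CPM in Cdk2-WT Leydig cells, against 23.2 to 52.1 CPM, log2 difference 1.16 (SE 0.13, adjusted p = 1.21e-06). Acat2, the thiolase that supplies acetoacetyl-CoA, passed the test below 2-fold, at 0.91 (SE 0.16). Mvd was at 0.83 without the Cdk2-HET library. With cells of 2 rules left out, Mvd (1.14) and Acat2 (0.61) did not pass.

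All 11 genes of the squalene and sterol branch were higher in Leydig cells too, 10 of them at least 2-fold. Dhcr7, the reductase of a last step to cholesterol, had 152 CPM in Cdk2-Y15S, 289 CPM in Cdk2-HET and 183 CPM in Cdk2-WT Leydig cells, against 15.1 to 37.8 CPM in the other 9 sums, log2 difference 3.09 (SE 0.16, adjusted p = 2.15e-11). Msmo1, the oxidase that starts removal of sterol methyl groups, had 296 CPM in Cdk2-Y15S, 411 CPM in Cdk2-HET and 246 CPM in Cdk2-WT Leydig cells, against 32.5 to 58.1 CPM, log2 difference 2.88 (SE 0.14, adjusted p = 7.00e-12). Lss, which closes squalene epoxide to lanosterol, had 38 CPM in Cdk2-Y15S, 82.7 CPM in Cdk2-HET and 17.7 CPM in Cdk2-WT Leydig cells, against 4.76 to 9.41 CPM, log2 difference 2.78 (SE 0.33, adjusted p = 1.77e-06). For Lss the 3 Leydig libraries were far apart, with Cdk2-HET highest and Cdk2-WT lowest, and all 3 stood above the other sums. Sc5d, a sterol desaturase, had 29.7 CPM in Cdk2-Y15S, 58.3 CPM in Cdk2-HET and 30.1 CPM in Cdk2-WT Leydig cells, against 4.89 to 15.7 CPM, log2 difference 2.27 (SE 0.28, adjusted p = 2.60e-06). Nsdhl, a dehydrogenase of methyl removal, had 84.2 CPM in Cdk2-Y15S, 92.1 CPM in Cdk2-HET and 88.7 CPM in Cdk2-WT Leydig cells, against 11.4 to 30.6 CPM, log2 difference 2.18 (SE 0.16, adjusted p = 2.30e-09). Cyp51, the lanosterol demethylase, had 116 CPM in Cdk2-Y15S, 183 CPM in Cdk2-HET and 133 CPM in Cdk2-WT Leydig cells, against 13.9 to 56.2 CPM, log2 difference 2.11 (SE 0.15, adjusted p = 1.03e-09). The 3 Leydig libraries again lay above every other sum for these genes.

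Tm7sf2, a sterol reductase, was the least counted member, at 21.5 CPM in Cdk2-Y15S, 17.6 CPM in Cdk2-HET and 7.09 CPM in Cdk2-WT Leydig cells, against 1.71 to 5.77 CPM in the other 9 sums, log2 difference 1.99 (SE 0.38, adjusted p = 0.000406). The Cdk2-WT value rests on few molecules (4 UMIs). Hsd17b7, a reductase of methyl removal, had 23.1 CPM in Cdk2-Y15S, 54.2 CPM in Cdk2-HET and 28.4 CPM in Cdk2-WT Leydig cells, against 7.54 to 15.1 CPM, log2 difference 1.57 (SE 0.26, adjusted p = 8.03e-05). Sqle, squalene epoxidase and a rate-limiting step, had 132 CPM in Cdk2-Y15S, 146 CPM in Cdk2-HET and 108 CPM in Cdk2-WT Leydig cells, against 17.4 to 106 CPM, log2 difference 1.45 (SE 0.17, adjusted p = 1.21e-06). The Cdk2-WT Leydig level of Sqle was only just above the highest other sum, that of Cdk2-WT stromal cells at 106 CPM. Fdft1, squalene synthase, had 95.8 CPM in Cdk2-Y15S, 122 CPM in Cdk2-HET and 95.8 CPM in Cdk2-WT Leydig cells, against 37.8 to 55 CPM, log2 difference 1.06 (SE 0.14, adjusted p = 5.63e-06). Ebp, a sterol isomerase, passed the test at 0.61 (SE 0.17), and its Leydig and Sertoli sums overlapped. Without the Cdk2-HET library Ebp did not pass (0.44) and Hsd17b7 was at 1.00. Tm7sf2 did not pass with cells of 2 rules left out (1.70).

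Of the 5 control genes 3 were higher in Leydig cells, 1 of them by at least 2-fold. Scap, the escort of the Srebf factors, had 203 CPM in Cdk2-Y15S, 176 CPM in Cdk2-HET and 271 CPM in Cdk2-WT Leydig cells, against 54.7 to 121 CPM in the other 9 sums, log2 difference 1.35 (SE 0.11, adjusted p = 2.04e-08). Srebf2, the factor known for cholesterol genes, passed the test at 0.97 (SE 0.21), and Insig1, the anchor that is itself a target of these factors, at 0.88 (SE 0.19). Insig1 did not pass without the Cdk2-HET library (0.60) or with cells of 2 rules left out (0.77). Insig2, the second anchor, and Srebf1, the factor known for fatty acid genes, did not pass: Insig2 was at 0.24 (SE 0.17) with adjusted p = 0.295, and Srebf1 at 0.39 (SE 0.26) with adjusted p = 0.275.

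Among the transport genes Abca1 stood apart. Abca1, the exporter, had 569.7 CPM in Cdk2-Y15S, 424 CPM in Cdk2-HET and 291 CPM in Cdk2-WT Leydig cells, against 14.1 to 38.4 CPM in the other 9 sums, log2 difference 4.07 (SE 0.12, adjusted p = 1.83e-15). Macrophages are also known to express Abca1, and macrophage markers were counted in the Leydig class (above). With Leydig cells of at least 3 macrophage marker UMIs left out, a choice made after seeing the data, 71, 74 and 76 cells remained and the difference was 4.08. Soat1, which esterifies cholesterol for storage, had 99.1 CPM in Cdk2-Y15S, 139.6 CPM in Cdk2-HET and 103 CPM in Cdk2-WT Leydig cells, against 21.6 to 38.2 CPM, log2 difference 2.02 (SE 0.15, adjusted p = 4.56e-09). Stard4, a cytosolic sterol carrier, had 33 CPM in Cdk2-Y15S, 36.6 CPM in Cdk2-HET and 19.5 CPM in Cdk2-WT Leydig cells, against 4.48 to 17.9 CPM, log2 difference 1.52 (SE 0.23, adjusted p = 3.06e-05). Npc1, the membrane protein that lets cholesterol out of lysosomes, had 18.2 CPM in Cdk2-Y15S, 13.6 CPM in Cdk2-HET and 28.4 CPM in Cdk2-WT Leydig cells, against 6.16 to 12.7 CPM, log2 difference 1.07 (SE 0.31, adjusted p = 0.0117). Npc1 did not pass without the Cdk2-WT library (0.70), with cells of 2 rules left out (1.45), with the macrophage filter (0.73) or at stricter class markers (0.91). Its lysosomal partner Npc2 did not pass, at 0.05 (SE 0.10) with adjusted p = 0.732. Its Leydig sums overlapped the stromal and myoid sums.

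**Figure D2:**
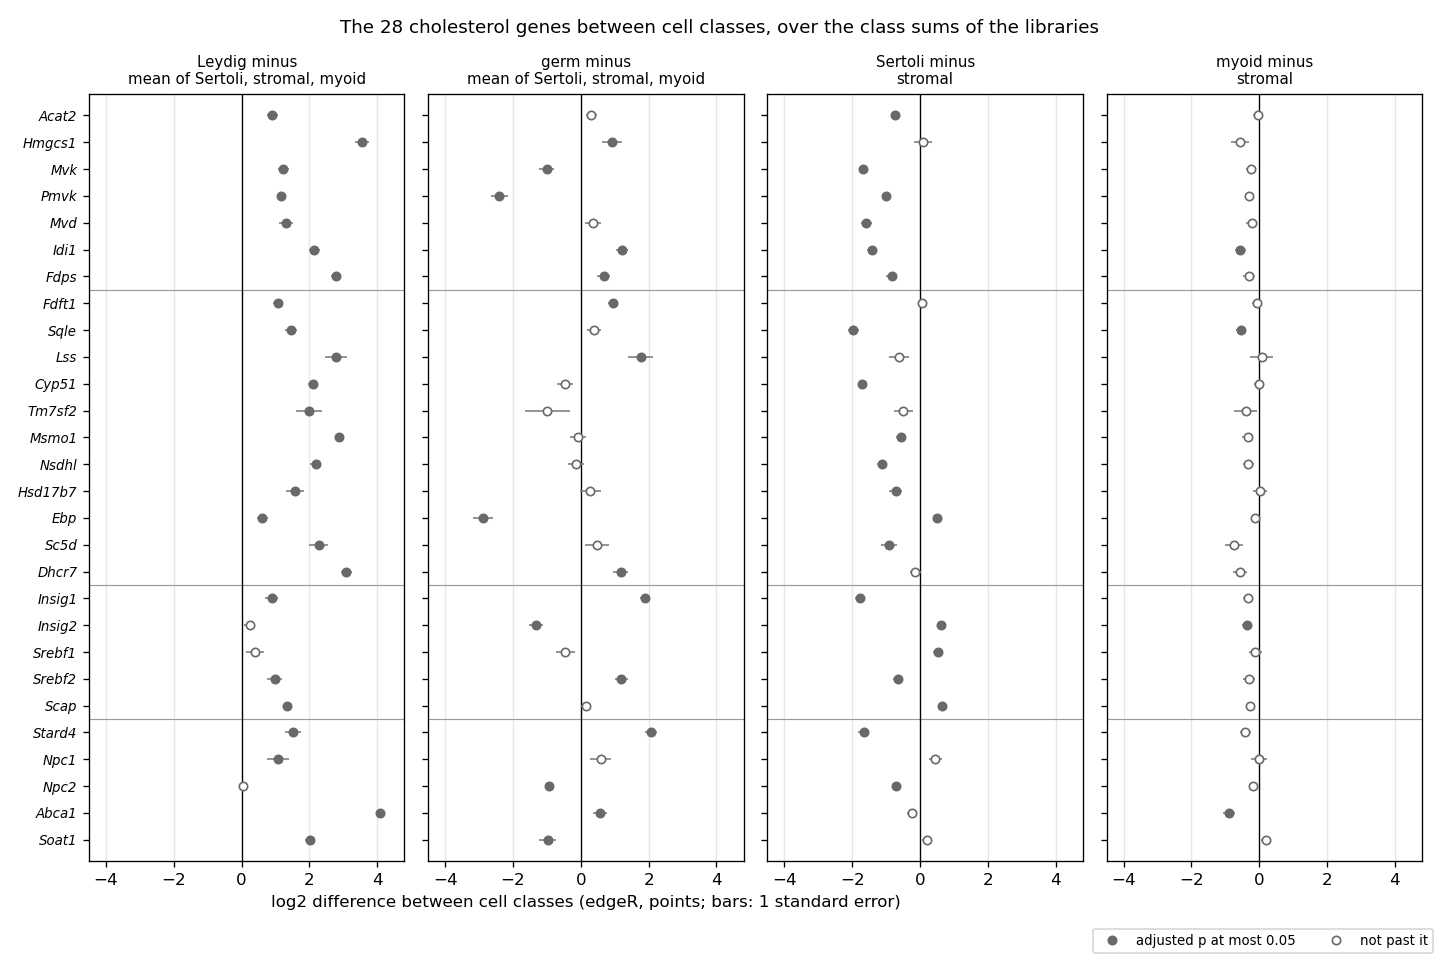
Difference in level between cell classes for the 28 genes (log2 scale, edgeR), with 1 standard error as bars; filled points passed an adjusted p of 0.05 and open points did not. In the Leydig panel 25 points are filled and lie right of 0, while in the Sertoli against stromal panel 16 filled points lie left of 0.

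Neighbouring pathways were set between Leydig cells and the other somatic classes in the same way. Over all genes tested, 16.7% were higher in Leydig cells and 18.5% lower. Of 11 genes of fatty acid synthesis, 8 were higher and none lower (lowest Acaca at -0.22, not passing), and the highest was the desaturase Fads2, at 82.6 CPM in Cdk2-Y15S, 159.9 CPM in Cdk2-HET and 94 CPM in Cdk2-WT Leydig cells against 2.82 to 12.9 CPM in the 9 other sums, log2 difference 4.26. Of 9 tested steroidogenic genes outside the class rule, 8 were higher and 1 lower. The highest was Star, which moves cholesterol into mitochondria, at 7.70, and the lowest Hsd17b3, which makes testosterone from androstenedione, at -1.44. Among 9 uptake and delivery genes 4 were higher and none lower; the highest was the lipoprotein receptor Scarb1, at 319 CPM in Cdk2-Y15S, 660.0 CPM in Cdk2-HET and 897 CPM in Cdk2-WT Leydig cells against 56.5 to 133 CPM in the other sums, log2 difference 2.84. Vldlr was the lowest at -0.88 and did not pass. The proteases and sterol sensors of the Srebf factors gave no gene higher and 1 lower of 7 (Mbtps1 lowest at -0.45). LXR and its targets other than Abca1 gave none higher and 1 lower of 5 tested (Rxra lowest at -1.14, Rxrb highest at 0.20), and the non-sterol isoprenoid branch none higher and 1 lower of 10 (Nus1 lowest at -0.54, Pggt1b highest at 0.74).

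Within the Leydig class the synthesis genes were higher in cells with more of the class markers. The 30 cells just outside the rule, with 5 to 9 marker UMIs, held 1274 CPM of the 18 synthesis genes together. By library it was 1475 CPM in Cdk2-Y15S, 1315 CPM in Cdk2-HET and 994 CPM in Cdk2-WT, against 1644, 1203 and 973 CPM in the cells just inside the rule, so that Cdk2-HET and Cdk2-WT were not higher inside. Inside the rule the sum was 1431 CPM in the 37 cells with 10 to 19 marker UMIs, 2301 CPM in the 113 cells with 20 to 99, and 3849.6 CPM in the 76 cells with at least 100, in the same order in each library. The cells with most marker UMIs were also deeper, with a median of 10554 UMIs against 6175 UMIs in the lowest bin inside the rule. These values are a description, since depth helps a cell to pass the rule. In the median Leydig cell, 25.3 of 10000 UMIs in Cdk2-Y15S, 29.2 in Cdk2-HET and 17.2 in Cdk2-WT came from the 18 genes, against 3.40 to 5.50 in the median Sertoli, stromal or myoid cell.

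Set against Sertoli, stromal and myoid cells, germ cells had the highest differences for Stard4 and Insig1 and the lowest for Ebp and Pmvk. The test called 10 of 28 members higher and 6 lower, against 34.9% and 28% of all genes, so the shares are near those of all genes. At least 2-fold, 6 members were higher and 4 lower, against 3353 and 2759 of all 13994 genes tested. Scaled to total UMIs, 15 were higher and 6 lower, with a median of 0.59 against 0.32 over all genes. Stard4 had 41.4 CPM in Cdk2-Y15S and 53.6 CPM in Cdk2-WT germ cells, against 4.48 to 17.9 CPM in the 9 Sertoli, stromal and myoid sums, log2 difference 2.07 (SE 0.19, adjusted p = 1.78e-08). Insig1 had 97.8 CPM in Cdk2-Y15S and 183 CPM in Cdk2-WT germ cells, against 15.1 to 57.5 CPM, log2 difference 1.88 (SE 0.15, adjusted p = 3.42e-09). Both germ libraries stood above all 9 sums for these genes. Lss had 28.5 CPM in Cdk2-Y15S and 21.4 CPM in Cdk2-WT germ cells, against 4.76 to 9.41 CPM, log2 difference 1.76 (SE 0.38, adjusted p = 0.00047). Idi1 had 62.8 CPM in Cdk2-Y15S and 98.9 CPM in Cdk2-WT germ cells, against 16 to 57.1 CPM, log2 difference 1.22 (SE 0.18, adjusted p = 6.67e-06). Srebf2 had 53.5 CPM in Cdk2-Y15S and 80.8 CPM in Cdk2-WT germ cells, against 17 to 32.2 CPM, log2 difference 1.19 (SE 0.19, adjusted p = 1.97e-05). Dhcr7 had 50.7 CPM in Cdk2-Y15S and 70.9 CPM in Cdk2-WT germ cells, against 15.1 to 37.8 CPM, log2 difference 1.18 (SE 0.22, adjusted p = 0.000125). No germ sum of these 4 genes overlapped the other sums, but Lss did not pass without the Cdk2-Y15S library (1.27). The share of all genes whose germ sums lay above or below all 9 sums was not counted.

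The 6 lower members came from several steps. Ebp had 5.71 CPM in Cdk2-Y15S and 4.12 CPM in Cdk2-WT germ cells, against 24.1 to 49 CPM in the 9 sums, log2 difference -2.89 (SE 0.29, adjusted p = 7.64e-08). Pmvk had 9.28 CPM in Cdk2-Y15S and 5.77 CPM in Cdk2-WT germ cells, against 23.2 to 52.1 CPM, log2 difference -2.41 (SE 0.24, adjusted p = 7.59e-08). Both germ values lay far below every other sum. Insig2 had 17.8 CPM in Cdk2-Y15S and 14.8 CPM in Cdk2-WT germ cells, against 23.6 to 57.6 CPM, log2 difference -1.31 (SE 0.21, adjusted p = 1.91e-05), so that the anchor genes Insig1 and Insig2 differed in opposite directions. Mvk had 16.4 CPM in Cdk2-Y15S and 19.8 CPM in Cdk2-WT germ cells, against 13.9 to 55.9 CPM, and overlapped the Sertoli sums, log2 difference -1.01 (SE 0.22, adjusted p = 0.000542). Soat1 at -0.97 (SE 0.25) and Npc2 at -0.94 (SE 0.12) were lower by less than 2-fold. Hmgcs1 passed at 0.92 (SE 0.29), but its difference was -0.04 without the Cdk2-WT library, 1.42 without Cdk2-Y15S, and 0.69 and not passing without Cdk2-HET. The other members that passed below 2-fold were Fdft1, Fdps and Abca1, at 0.95, 0.68 and 0.55, and the 12 remaining members did not pass. Without Cdk2-Y15S, Fdft1 was at 0.61 and passed, while Fdps was at 0.20 and did not. Fdps and Abca1 also missed the threshold without Cdk2-HET (0.43 and 0.34), and Abca1 without Cdk2-WT (0.16). The median of the members was 0.34 (0.07 over all genes), and -0.11 without Cdk2-Y15S. The counts of the other lists stand against 34.9% of all genes higher and 28% lower. Of the other lists, fatty acid synthesis had 6 higher and 2 lower of 11 genes (Scd1 2.64, Me1 -1.57), uptake none higher and 4 lower of 9 (Vdac1 lowest at -2.44), the Srebf processing list 2 higher and 4 lower of 7 (Erlin1 highest at 1.68), LXR 2 higher and 1 lower of 5 (Abcg1 1.70, Nr1h2 -0.35), the isoprenoid branch 3 higher and 1 lower of 10 (Icmt 1.69, Fnta -0.90) and steroidogenesis 1 higher and 4 lower of 9 (Srd5a1 0.75, Nr5a1 -3.68).

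Sertoli cells had less RNA of many synthesis genes than stromal cells. Of the 28 members 16 were lower and 4 higher, against 31.9% and 35.2% of all genes, and the median was -0.68 against 0.06. Sqle had 17.4 CPM in Cdk2-Y15S, 24.5 CPM in Cdk2-HET and 20.5 CPM in Cdk2-WT Sertoli cells, against 58.1, 74.4 and 106 CPM in stromal cells of the same genotypes, log2 difference -1.96 (SE 0.16, adjusted p = 1.48e-09). Insig1 had 15.3 CPM in Cdk2-Y15S, 15.1 CPM in Cdk2-HET and 15.7 CPM in Cdk2-WT Sertoli cells, against 45 to 57.5 CPM in stromal cells, log2 difference -1.78 (SE 0.14, adjusted p = 2.10e-09). The Sertoli sums of both genes lay below every stromal sum. Cyp51 had 13.9 CPM in Cdk2-Y15S, 16.1 CPM in Cdk2-HET and 13.9 CPM in Cdk2-WT Sertoli cells, against 37.2 to 56.2 CPM, log2 difference -1.70 (SE 0.14, adjusted p = 3.49e-09). Mvk had 13.9 CPM in Cdk2-Y15S, 18.5 CPM in Cdk2-HET and 15.1 CPM in Cdk2-WT Sertoli cells, against 41.9 to 55.9 CPM, log2 difference -1.68 (SE 0.13, adjusted p = 6.35e-10). Stard4 had 4.48 CPM in Cdk2-Y15S, 5.68 CPM in Cdk2-HET and 5.24 CPM in Cdk2-WT Sertoli cells, against 13.8 to 17.9 CPM, log2 difference -1.66 (SE 0.16, adjusted p = 3.32e-08). In none of these did the Sertoli and stromal sums overlap. The share of all genes with such separate sums was not counted.

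Mvd had 8.50 CPM in Cdk2-Y15S, 10.7 CPM in Cdk2-HET and 9.85 CPM in Cdk2-WT Sertoli cells, against 25.5 to 30.4 CPM in stromal cells, log2 difference -1.59 (SE 0.16, adjusted p = 6.00e-08). Idi1 had 16.8 CPM in Cdk2-Y15S, 22.2 CPM in Cdk2-HET and 16 CPM in Cdk2-WT Sertoli cells, against 38.8 to 57.1 CPM, log2 difference -1.41 (SE 0.15, adjusted p = 7.18e-08). Nsdhl had 11.4 CPM in Cdk2-Y15S, 13 CPM in Cdk2-HET and 11.6 CPM in Cdk2-WT Sertoli cells, against 22 to 30.6 CPM, log2 difference -1.11 (SE 0.14, adjusted p = 1.03e-06). These 3 completed the 8 of 28 members lower by at least 2-fold, against 2837 of all 13994 genes tested. Sc5d, lower by less than that, was at -0.92 (SE 0.22) with all libraries and at -0.61 without Cdk2-WT. The 4 higher members were Scap, Insig2, Srebf1 and Ebp, all below 2-fold, at 0.66 (SE 0.12), 0.63 (SE 0.11), 0.53 (SE 0.15) and 0.51 (SE 0.12). Without Cdk2-HET, Srebf1 (0.49) and Ebp (0.35) did not pass, nor did Srebf1 without Cdk2-Y15S (0.29). Of the 5 control genes 3 were thus higher while Insig1 and Srebf2 were lower, Srebf2 at -0.65 (SE 0.15). Hmgcs1 did not pass (0.09), with 104 CPM in Cdk2-Y15S, 80.9 CPM in Cdk2-HET and 51.2 CPM in Cdk2-WT Sertoli cells overlapping the stromal sums at 68.4 to 71.5 CPM. For the other lists, the shares over all genes were 35.2% higher in Sertoli cells and 31.9% lower. Among fatty acid genes 7 of 11 were higher in Sertoli cells (Scd2 highest at 1.73) and 2 lower (Scd1 lowest at -3.38). The uptake list held 4 higher and 2 lower of 9, with Stard3 highest at 1.18 and Vldlr lowest at -4.06. The Srebf processing list held 4 higher and 1 lower of 7 (Mbtps2 0.72, Erlin1 -0.66), LXR 2 higher and 1 lower of 5 (Abcg1 3.39, Rxra -0.78), the isoprenoid branch 4 higher and 3 lower of 10 (Icmt 0.65, Pdss1 -0.81) and steroidogenesis 5 higher and 3 lower of 9 (Hsd17b3 3.96, Lhcgr -5.03).

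Few members passed the test between myoid and stromal cells, which were not far apart in stromal markers (above). None of the 28 was higher in myoid cells (none at an unadjusted p under 0.05, and none by DESeq2) and 4 were lower, against 9.64% and 10.5% of all genes. Abca1 had 17.6 CPM in Cdk2-Y15S, 15.2 CPM in Cdk2-HET and 14.1 CPM in Cdk2-WT myoid cells, against 19.4 to 38.4 CPM in stromal cells, at -0.89 (SE 0.17). The other 3 were Idi1 at -0.55 (SE 0.16), Sqle at -0.54 (SE 0.16) and Insig2 at -0.37 (SE 0.13), all below 2-fold. Without the Cdk2-HET library none of the 4 passed. Of the other lists, steroidogenesis had 5 of 9 genes lower and none higher (Lhcgr lowest at -2.0), fatty acid synthesis 2 of 11 lower and none higher (Me1 lowest at -1.17), uptake 2 higher and 2 lower of 9 (Lrp1 highest at 1.07, Vldlr lowest at -1.52) and LXR 2 of 5 higher and none lower (Abcg1 highest at 2.78), while no gene of the Srebf processing list or the isoprenoid branch passed.

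Between genotypes there was 1 library each, so no test was made: ratios are given with the exact binomial 95% interval, which covers counting error only and not the spread between animals. Ratios were counted for members with at least 50 UMIs in both sums together, and those of at least 1.5-fold are called past that size. Both comparisons are against the same Cdk2-WT library, so they are not independent of each other. In all, 39 of the member ratios over 9 comparisons were past 1.5-fold, and 23 of these stayed past it under every alternative run.

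In Cdk2-Y15S Leydig cells, 3 of 19 counted members were at least 1.5-fold above Cdk2-WT and none below, against 7.78% and 9.47% of all genes counted. Hmgcs1 had 664 UMIs in Cdk2-Y15S against 274 UMIs in Cdk2-WT Leydig cells, log2 ratio 1.17 (95% interval 0.97 to 1.38), and its level was the highest of the 3 libraries. Abca1 had 345 UMIs in Cdk2-Y15S against 164 UMIs in Cdk2-WT, log2 ratio 0.97 (95% interval 0.70 to 1.25). Srebf2 had 42 UMIs in Cdk2-Y15S against 24 UMIs in Cdk2-WT, log2 ratio 0.69 (95% interval -0.05 to 1.49), an interval that takes in 0. With cells of 2 rules left out, Abca1 was at 1.57 and Srebf2 at 1.63, and 2 members short of 1.5-fold changed sign, Dhcr7 to 0.62 (-0.26 with all cells) and Insig1 to -0.65 (0.31 with all cells). Over the whole Leydig sums, the other synthesis genes did not share the size of the Hmgcs1 ratio: of the other 12 counted, 5 lay above 0 and 7 below, from -0.42 for Acat2 upward. The sums differed in make-up: 21 Cdk2-Y15S cells but 7 Cdk2-WT cells had only 10 to 19 UMIs of the class markers. These ratios were not taken at like levels of the class markers. The median of the 19 members was 0.26, against -0.03 over all genes. Macrophage and stromal markers in Leydig cells were lower in Cdk2-WT than in the other libraries (above), and with the macrophage filter the Cdk2-Y15S ratio of Abca1 was 0.97; the part of the stromal markers was not tested.

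The Hmgcs1 levels were also set side by side in bins of class marker UMIs per cell, with exact 95% Poisson intervals. Cdk2-Y15S cells were deeper than Cdk2-WT cells in each bin inside the rule, so like marker UMIs do not mean like marker levels. Their median was 6444 against 3057 UMIs at 10 to 19 marker UMIs. It was 7103.5 against 5842 UMIs at 20 to 99, and 11310.5 against 9874 UMIs at 100 or more. In cells with 20 to 99 marker UMIs Hmgcs1 had 822 CPM in Cdk2-Y15S (709.7 to 946) against 432 CPM in Cdk2-WT (356 to 518). In cells with at least 100 it had 1845 CPM in Cdk2-Y15S (1672 to 2030) against 573 CPM in Cdk2-WT (486 to 671). The intervals were apart in both bins. In cells with 10 to 19 it had 357 CPM in Cdk2-Y15S (51 UMIs, 266 to 469) against 174 CPM in Cdk2-WT (5 UMIs, 56.4 to 406), and in the cells just outside the rule 142 CPM in Cdk2-Y15S (75.6 to 243) against 107 CPM in Cdk2-WT (46.4 to 212). In these bins of few UMIs the intervals overlapped. The sum of the 18 synthesis genes, Hmgcs1 included, was also higher in Cdk2-Y15S than in Cdk2-WT in each bin inside the rule. It was 1644 against 973 CPM at 10 to 19 marker UMIs, 2562 against 1813 CPM at 20 to 99, and 4251 against 2772 CPM at 100 or more. In each of these bins the sums differed by more than the Hmgcs1 levels did, so the other synthesis genes together were also higher in Cdk2-Y15S. At 100 or more marker UMIs most of the difference was that of Hmgcs1. No interval was taken for the other genes.

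In Cdk2-HET Leydig cells more members were above Cdk2-WT: 9 of 24 counted were at least 1.5-fold higher and 1 lower, against 7.93% and 8.19% of all genes. All 17 counted synthesis genes had a ratio above 0, and the median of the members was 0.48, against -0.03 over all genes. Lss had 61 UMIs in Cdk2-HET against 10 UMIs in Cdk2-WT, log2 ratio 2.16 (95% interval 1.25 to 3.35). Hmgcs1 had 624 UMIs in Cdk2-HET against 274 UMIs in Cdk2-WT, log2 ratio 0.80 (95% interval 0.59 to 1.01). Msmo1 had 303 UMIs in Cdk2-HET against 139 UMIs in Cdk2-WT, log2 ratio 0.73 (95% interval 0.44 to 1.04). These span an enzyme of the mevalonate branch and enzymes after squalene. Dhcr7 had 213 UMIs in Cdk2-HET against 103 UMIs in Cdk2-WT, log2 ratio 0.66 (95% interval 0.31 to 1.01). Mvd had 54 UMIs in Cdk2-HET against 23 UMIs in Cdk2-WT, log2 ratio 0.83 (95% interval 0.11 to 1.61). Sc5d had 43 UMIs in Cdk2-HET against 17 UMIs in Cdk2-WT, log2 ratio 0.93 (95% interval 0.11 to 1.85), but its ratio was -0.04 with cells of 2 rules left out. Hsd17b7 had 40 UMIs in Cdk2-HET against 16 UMIs in Cdk2-WT, log2 ratio 0.91 (95% interval 0.07 to 1.87). Insig1 at 0.65 and Npc2 at 0.60 were above Cdk2-WT as well, and Scap was below it with 130 UMIs in Cdk2-HET against 153 UMIs in Cdk2-WT, log2 ratio -0.62 (95% interval -0.97 to -0.28). With cells of 2 rules left out, Dhcr7 was at 1.54 and Mvd at 1.49, and Lss was at 3.07 under the filter on genes and mitochondrial share. The ratios of Insig1, Npc2, Scap and Msmo1 fell under 1.5-fold under at least 1 alternative, Msmo1 to 0.37 once cells under 500 genes or over 10% mitochondrial UMIs were left out. Markers of other cells were higher in the Cdk2-HET than in the Cdk2-WT Leydig class: Sertoli markers summed to 508 CPM in Cdk2-HET and 293 CPM in Cdk2-WT, myoid markers to 127 CPM in Cdk2-HET and 44.3 CPM in Cdk2-WT, and erythroid markers to 129 CPM in Cdk2-HET and 10.6 CPM in Cdk2-WT. Their part was tested no further than by leaving out cells of 2 rules.

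**Figure D3:**
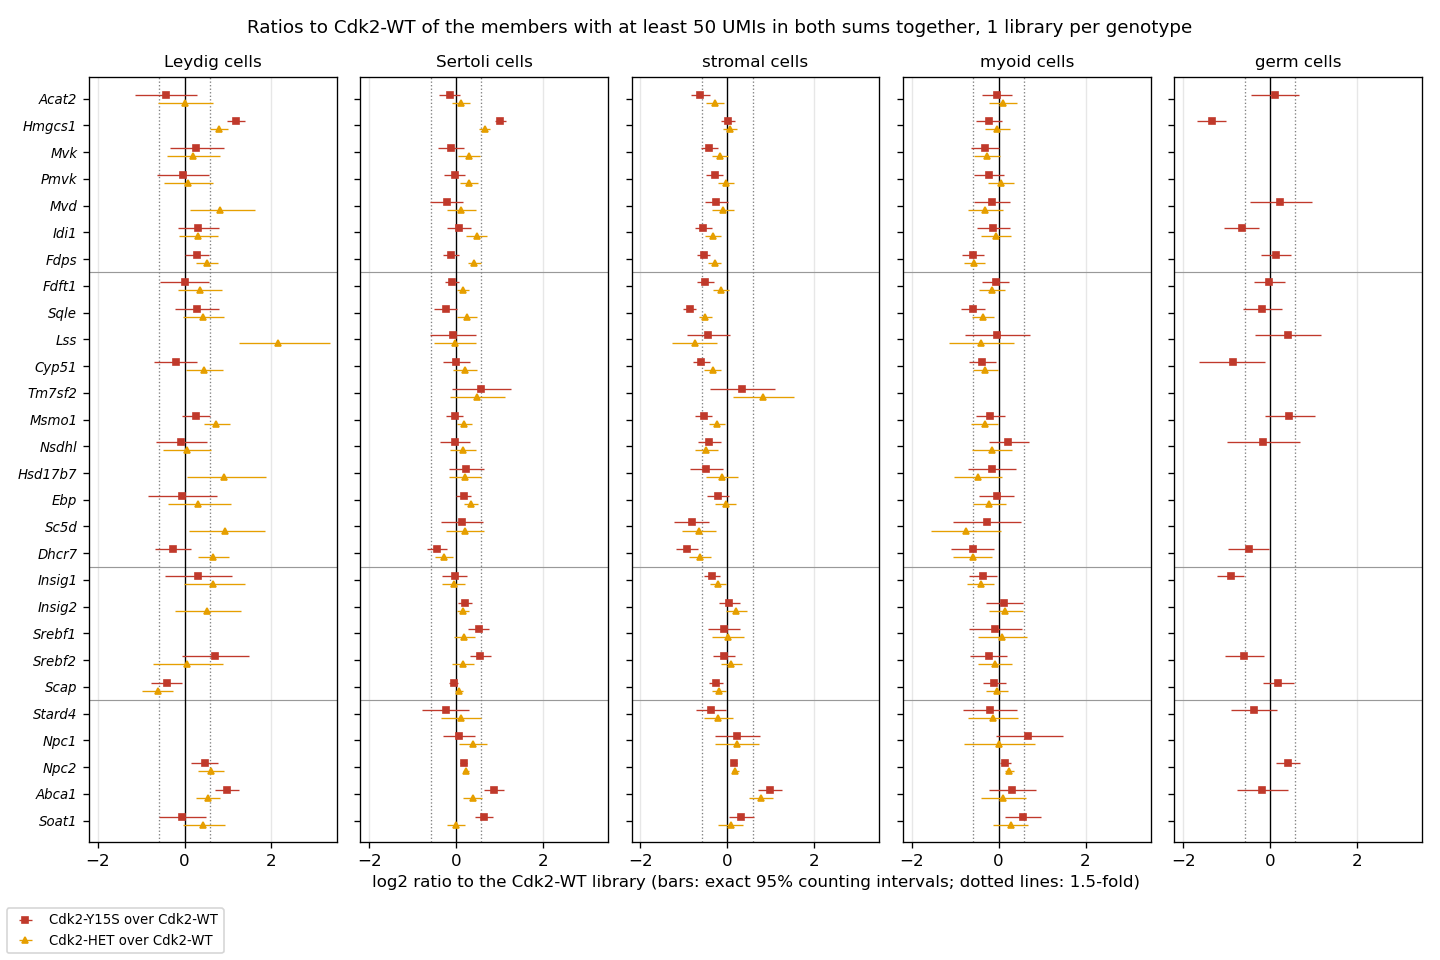
Ratio to the Cdk2-WT library (log2 scale) of the members with at least 50 UMIs in both sums together, in 5 cell classes, for Cdk2-Y15S (squares) and Cdk2-HET (triangles); bars are exact 95% counting intervals and dotted lines mark 1.5-fold. Most Cdk2-HET points of the Leydig panel lie right of 0, most points of both libraries in the stromal and myoid panels lie left of it, and Hmgcs1 lies right of 0 in Leydig and Sertoli cells and left of it in germ cells.

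In Sertoli cells the Hmgcs1 and Abca1 ratios of Cdk2-Y15S were past 1.5-fold as well. Of 28 members counted, 3 were at least 1.5-fold above Cdk2-WT and none below, against 7.9% and 3.33% of all genes, and the median was -0.01 against 0.07. Hmgcs1 had 104 CPM in Cdk2-Y15S against 51.2 CPM in Cdk2-WT Sertoli cells, log2 ratio 1.02 (95% interval 0.89 to 1.15). Abca1 had 35.5 CPM in Cdk2-Y15S against 19.3 CPM in Cdk2-WT, log2 ratio 0.88 (95% interval 0.66 to 1.10). Soat1 had 38.2 CPM in Cdk2-Y15S against 24.4 CPM in Cdk2-WT, log2 ratio 0.65 (95% interval 0.44 to 0.85), and fell just under the limit, to 0.58, under another scaling. Apart from Hmgcs1, the synthesis genes gave 6 ratios above 0 and 11 below. In Cdk2-HET Sertoli cells only Hmgcs1 was past 1.5-fold, with 80.9 CPM in Cdk2-HET against 51.2 CPM in Cdk2-WT, log2 ratio 0.66 (95% interval 0.53 to 0.79), against 3.59% of genes higher and 1.95% lower. The Hmgcs1 level of Cdk2-HET lay between those of Cdk2-Y15S and Cdk2-WT, with intervals that did not overlap. In Cdk2-HET Sertoli cells 25 of 28 members had a ratio above 0, with a median of 0.20, while 7068 of all 11214 genes counted lay above 0, with a median of 0.06. Markers of other classes in Sertoli cells also differed between libraries. Stromal markers summed to 42.3 CPM in Cdk2-Y15S, 34.1 CPM in Cdk2-HET and 22.6 CPM in Cdk2-WT, and erythroid markers to 42.8 CPM in Cdk2-Y15S, 153 CPM in Cdk2-HET and 149 CPM in Cdk2-WT. The 4 Sertoli genes of the class rule summed to 2572 CPM in Cdk2-Y15S, 3652 CPM in Cdk2-HET and 3522 CPM in Cdk2-WT, and the part of these markers in the ratios was not tested.

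In stromal cells most synthesis genes had ratios below 0 in Cdk2-Y15S, 5 of the 18 past 1.5-fold. Of 28 members counted, 5 were at least 1.5-fold below Cdk2-WT and 1 above, against 3.63% and 5.71% of all genes; the median was -0.36, against 0.02 over all genes, and 16 of 18 synthesis genes had a ratio below 0. Sqle had 58.1 CPM in Cdk2-Y15S against 106 CPM in Cdk2-WT stromal cells, log2 ratio -0.86 (95% interval -1.02 to -0.71). Dhcr7 had 19.9 CPM in Cdk2-Y15S against 37.8 CPM in Cdk2-WT, log2 ratio -0.92 (95% interval -1.19 to -0.66). Sc5d had 8.88 CPM in Cdk2-Y15S against 15.7 CPM in Cdk2-WT, log2 ratio -0.82 (95% interval -1.23 to -0.42). For Sqle, Dhcr7 and Sc5d the Cdk2-HET level lay between those of Cdk2-Y15S and Cdk2-WT, and so it did for Acat2 and Cyp51. Acat2 had 30.5 CPM in Cdk2-Y15S against 46.8 CPM in Cdk2-WT, log2 ratio -0.62 (95% interval -0.84 to -0.40), and Cyp51 had 37.2 CPM in Cdk2-Y15S against 56.2 CPM in Cdk2-WT, log2 ratio -0.59 (95% interval -0.80 to -0.39). Both ended near 1.5-fold and fell under it in at least 1 alternative (Acat2 -0.55, Cyp51 -0.58). Against these, Abca1 was higher, with 38.4 CPM in Cdk2-Y15S against 19.4 CPM in Cdk2-WT, log2 ratio 0.98 (95% interval 0.72 to 1.26). Hmgcs1 was level, at 69.1 CPM in Cdk2-Y15S against 68.4 CPM in Cdk2-WT.

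The Cdk2-HET stromal cells leaned the same way against the shared Cdk2-WT library. Of 28 members 3 were at least 1.5-fold below and 2 above, against 2.21% and 4.3% of all genes; the median was -0.16, against 0.03 over all genes, and again 16 of 18 synthesis genes were below 0. Lss had 5.57 CPM in Cdk2-HET against 9.41 CPM in Cdk2-WT, log2 ratio -0.75 (95% interval -1.28 to -0.24). Sc5d had 10.0 CPM in Cdk2-HET against 15.7 CPM in Cdk2-WT, log2 ratio -0.64 (95% interval -1.04 to -0.26), and Dhcr7 had 24.5 CPM in Cdk2-HET against 37.8 CPM in Cdk2-WT, log2 ratio -0.62 (95% interval -0.87 to -0.38). Both Sc5d and Dhcr7 came under 1.5-fold in 1 alternative (-0.57 and -0.53). Abca1 had 33.3 CPM in Cdk2-HET against 19.4 CPM in Cdk2-WT, log2 ratio 0.78 (95% interval 0.50 to 1.06). Tm7sf2, with few molecules, had 57 UMIs in Cdk2-HET against 27 UMIs in Cdk2-WT, log2 ratio 0.81 (95% interval 0.14 to 1.54). Stromal markers in stromal cells summed to 2878 CPM in Cdk2-Y15S, 2756 CPM in Cdk2-HET and 2309.9 CPM in Cdk2-WT, lowest in Cdk2-WT, and their part in these ratios was not tested.

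In myoid cells most synthesis genes also had ratios below 0. In Cdk2-Y15S, 3 of 27 members were at least 1.5-fold below Cdk2-WT and 1 above, against 4.45% and 5.37% of all genes, with 16 of 17 counted synthesis genes below 0. Dhcr7 had 15.1 CPM in Cdk2-Y15S against 22.9 CPM in Cdk2-WT myoid cells, log2 ratio -0.59 (95% interval -1.09 to -0.11). Sqle had 42.7 CPM in Cdk2-Y15S against 64.2 CPM in Cdk2-WT, log2 ratio -0.59 (95% interval -0.88 to -0.30). Fdps had 52 CPM in Cdk2-Y15S against 78.1 CPM in Cdk2-WT, log2 ratio -0.59 (95% interval -0.85 to -0.33). These 3 sat at the limit and dropped under it in at least 1 alternative, Dhcr7 to -0.41. Npc1 was above, with 41 UMIs in Cdk2-Y15S against 24 UMIs in Cdk2-WT, log2 ratio 0.69 (95% interval -0.06 to 1.49). In Cdk2-HET, none of 27 was above and 2 were below, against 4.19% and 1.92% of all genes: Sc5d had 26 UMIs in Cdk2-HET against 32 UMIs in Cdk2-WT, log2 ratio -0.74 (95% interval -1.55 to 0.04), and Dhcr7 had 15.1 CPM in Cdk2-HET against 22.9 CPM in Cdk2-WT, log2 ratio -0.60 (95% interval -1.06 to -0.15). Of the 17 counted synthesis genes 15 were below 0 in Cdk2-HET, with a median of -0.30, against -0.26 in stromal cells. The medians of the members were -0.15 in each comparison, against 0.01 over all genes in Cdk2-Y15S and 0.08 in Cdk2-HET. Macrophage markers in myoid cells summed to 2.44 CPM in Cdk2-Y15S, 8.09 CPM in Cdk2-HET and 41.1 CPM in Cdk2-WT. Stromal markers there summed to 2422 CPM in Cdk2-Y15S, 2184 CPM in Cdk2-HET and 1700 CPM in Cdk2-WT. The part of these markers in the myoid ratios was not tested.

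In the germ cells, which came from Cdk2-Y15S and Cdk2-WT, 5 of 18 counted members were at least 1.5-fold lower in Cdk2-Y15S and none higher, against 15.1% and 11.7% of all genes. Hmgcs1 had 77.1 CPM in Cdk2-Y15S against 195 CPM in Cdk2-WT germ cells, log2 ratio -1.34 (95% interval -1.68 to -1.01). Insig1 had 97.8 CPM in Cdk2-Y15S against 183 CPM in Cdk2-WT, log2 ratio -0.90 (95% interval -1.22 to -0.59). Both genes were lower in Cdk2-Y15S, where Hmgcs1 had been higher in Leydig and Sertoli cells. Cyp51 had 26 UMIs in Cdk2-Y15S against 41 UMIs in Cdk2-WT, log2 ratio -0.86 (95% interval -1.63 to -0.12). Idi1 had 62.8 CPM in Cdk2-Y15S against 98.9 CPM in Cdk2-WT, log2 ratio -0.65 (95% interval -1.07 to -0.25), and Srebf2 had 53.5 CPM in Cdk2-Y15S against 80.8 CPM in Cdk2-WT, log2 ratio -0.59 (95% interval -1.05 to -0.15). The ratios of Idi1 and Srebf2 fell under 1.5-fold with cells of 2 rules left out (-0.32 and -0.36), and Insig1 to -0.25 once cells under 500 genes or over 10% mitochondrial UMIs were left out. The median of the 18 members was -0.16, against -0.02 over all genes. Macrophage markers in germ cells summed to 41.4 CPM in Cdk2-Y15S and 118 CPM in Cdk2-WT, and stromal markers to 130 CPM in Cdk2-Y15S and 77.5 CPM in Cdk2-WT. The collagen and Dcn genes of the class rule summed to 360 CPM in Cdk2-Y15S and 165 CPM in Cdk2-WT. Of the 141 germ cells 53 also met the rule of another class, and the part of these markers in the ratios was tested no further than by leaving those cells out.

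The germ cells of the 2 genotypes lay mostly in separate clusters of the authors' table. Hmgcs1 had 82.7 CPM in cluster D and 61.9 CPM in cluster E, which held 37 and 21 Cdk2-Y15S cells, and 239 CPM in cluster A, which held 36 Cdk2-WT cells. In cluster B it had 74.2 CPM in Cdk2-Y15S (6 cells, exact Poisson interval 37 to 133) against 157 CPM in Cdk2-WT (28 cells, 125 to 194). In cluster C it had 121 CPM in Cdk2-Y15S (8 cells, 64.5 to 207) against 128 CPM in Cdk2-WT (5 cells, 58.4 to 242). The Hmgcs1 intervals of the 2 genotypes overlapped in both clusters, in cluster B only from 125 to 133 CPM. Overlap of such intervals does not show that levels were equal, and no ratio interval was taken within clusters. Insig1 in cluster B had 101 CPM in Cdk2-Y15S (15 UMIs, 56.6 to 167) against 217 CPM in Cdk2-WT (119 UMIs, 180 to 260). In cluster C it had 112 CPM in Cdk2-Y15S (12 UMIs, 57.8 to 195) against 42.6 CPM in Cdk2-WT (3 UMIs, 8.78 to 124). The Insig1 intervals were apart in cluster B and overlapped in cluster C, where the counts were few. Genotype and cluster cannot be told apart for most of these cells.

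Summed over the 18 synthesis genes, Leydig cells held 2981 CPM in Cdk2-Y15S, 3351 CPM in Cdk2-HET and 2227 CPM in Cdk2-WT. The sums were 437 CPM in Cdk2-Y15S, 487 CPM in Cdk2-HET and 399 CPM in Cdk2-WT Sertoli cells and 586 CPM in Cdk2-Y15S, 689 CPM in Cdk2-HET and 820.1 CPM in Cdk2-WT stromal cells. Leydig cells were thus highest in Cdk2-HET and lowest in Cdk2-WT, whereas stromal cells were highest in Cdk2-WT and lowest in Cdk2-Y15S. Myoid cells held 507 CPM in Cdk2-Y15S, 515 CPM in Cdk2-HET and 612 CPM in Cdk2-WT, and germ cells 716 CPM in Cdk2-Y15S and 885 CPM in Cdk2-WT. Hmgcs1 made up much of some of these differences. Without it, the other 17 genes summed to 1884 CPM in Cdk2-Y15S, 2506 CPM in Cdk2-HET and 1741 CPM in Cdk2-WT Leydig cells. In Sertoli cells they summed to 332.9, 406 and 347 CPM in Cdk2-Y15S, Cdk2-HET and Cdk2-WT, so that Cdk2-Y15S was below Cdk2-WT once Hmgcs1 was left out. In stromal cells the order held, at 517 CPM in Cdk2-Y15S, 618 CPM in Cdk2-HET and 752 CPM in Cdk2-WT. In germ cells the 17 genes summed to 639 CPM in Cdk2-Y15S and 689 CPM in Cdk2-WT.

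**Figure D4:**
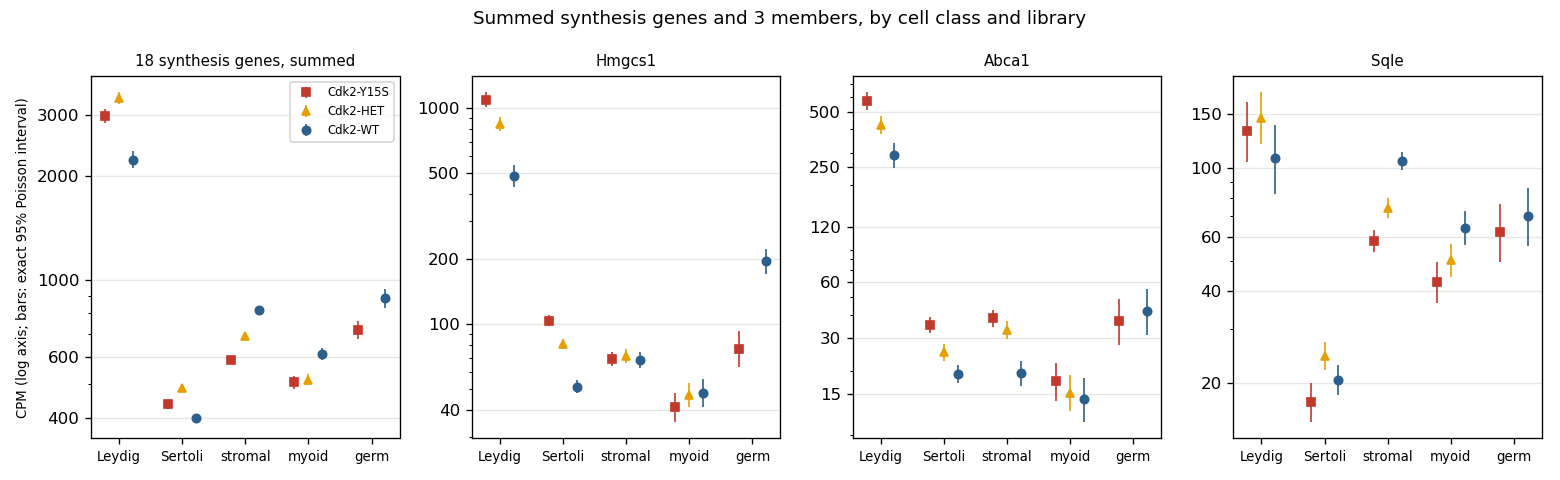
Summed level of the 18 synthesis genes and levels of Hmgcs1, Abca1 and Sqle (CPM, log axes) by cell class, with 1 point per library and exact 95% Poisson intervals as bars. The synthesis sum is lowest in Cdk2-WT among Leydig libraries and highest in Cdk2-WT among stromal ones, while Hmgcs1 is highest in Cdk2-Y15S in Leydig and Sertoli cells and lower in Cdk2-Y15S in germ cells.

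Other genes of cholesterol handling also differed in size between the Leydig libraries. Scarb1 had 319 CPM in Cdk2-Y15S against 897 CPM in Cdk2-WT Leydig cells, log2 ratio -1.49 (95% interval -1.74 to -1.25), the lowest of the uptake list. The highest of that list was Stard3, a late endosome sterol carrier, with 40 UMIs in Cdk2-Y15S against 15 UMIs in Cdk2-WT, log2 ratio 1.28 (95% interval 0.42 to 2.27). Of the 6 uptake genes counted, 3 were at least 1.5-fold above Cdk2-WT and 1 below, against 7.78% and 9.47% of all genes. Of 7 steroidogenic genes counted, 3 were at least 1.5-fold below, against 9.47% of all genes. The lowest was Por, the electron donor of the steroid hydroxylases. Por had 30 UMIs in Cdk2-Y15S against 78 UMIs in Cdk2-WT, log2 ratio -1.47 (95% interval -2.14 to -0.86). Leydig markers outside the class rule summed lowest in Cdk2-Y15S (above). In Cdk2-HET Leydig cells 4 of 8 fatty acid genes were at least 1.5-fold above Cdk2-WT, against 7.93% of all genes. Fasn, fatty acid synthase, was the highest at log2 ratio 1.65 (95% interval 0.80 to 2.69). Nr5a1, the gene of SF-1, was the lowest steroidogenic gene there, with 222 CPM in Cdk2-HET against 511 CPM in Cdk2-WT, log2 ratio -1.20 (95% interval -1.49 to -0.92). In germ cells 4 of 9 fatty acid genes were at least 1.5-fold lower in Cdk2-Y15S and none higher, against 15.1% and 11.7% of all genes. Scd2, a desaturase, was the lowest at 82.1 CPM in Cdk2-Y15S against 204 CPM in Cdk2-WT, log2 ratio -1.31 (95% interval -1.64 to -0.99). In the other comparisons, at most 2 genes of any list were past 1.5-fold in 1 direction.

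Several members share exon bases with other genes, and whether counting used strand is not stated in the labels. Fdps shares 1124 exon bases with Gm43738 and Tm7sf2 shares 532 with Vps51, both on the same strand, and Srebf1 holds a microRNA gene, Mir6922, on its own strand (66 bases). On the opposite strand, Scap shares 985 bases with 5830462I19Rik, Fdft1 774 with Ctsb, Hmgcs1 557 with Gm48342, Npc1 511 with Rmc1, Lss 381 with 4930483K19Rik, Idi1 323 with Gm48574, Cyp51 166 with Akap9, Srebf1 109 with Rai1 and Npc1 another 90 with Gm15956. Counts of these members could hold reads of the partner gene.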

How the data were processed

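Raw UMI counts per gene and cell were deposited by the authors as a joint matrix of the 3 libraries, with a table of 141 germ cells and their clusters. The chemistry was 10x Genomics 3' v2, per the labels' protocols, and Cell Ranger 2.1.0, Seurat and build mm10 are named, without roles, in the submitters' processing notes, with annotation, cell calling and strand use not given in the sources used here. Every deposited cell was kept, doublets included. The 28 members and all gene lists were chosen with earlier results of these data known.

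UMIs were summed per library and class (14 sums) and given as CPM. Classes were compared with edgeR 4.0.16 in R 4.3.3 (quasi-likelihood, TMM, library as a term) on genes with at least 10 UMIs in at least 2 sums, with Benjamini-Hochberg adjustment. Genotype ratios are log2 ratios of CPM with 0.5 UMI added. PCR duplicates are collapsed by UMIs, and intervals cover counting error only. Members past 1.5-fold with at least 50 UMIs, or past the test and 2-fold, are given library by library, and other lists by count with their highest and lowest gene; a few genes are not reported here. Both methods were run on simulated counts without differences between libraries, with a fixed spread for the class test and counting error only for the ratios. These runs cannot stand in for the missing genotype replicates. Alternatives were DESeq2 1.42.0, other scalings, filters and marker thresholds, left-out doublets, cells of 2 rules or libraries, and free RNA subtracted. Promoters and positions are from RefSeq (GRCm38.p6) and GENCODE; python 3.11.15 was used for the rest.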

Additional observations from a re-analysis of the deposited data

Results flagged for a closer look

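In 4 cases the ratio of a member to Cdk2-WT was past 1.5-fold in opposite directions in different cell classes. Each class had 1 library per genotype, so none of these differences was tested. Hmgcs1 in Cdk2-Y15S was above Cdk2-WT in Leydig cells (log2 ratio 1.17) and below it in germ cells (-1.34), a difference of 2.51. Lss in Cdk2-HET was above Cdk2-WT in Leydig cells (2.16) and below it in stromal cells (-0.75), a difference of 2.92. The same held for Sc5d in Cdk2-HET, at 0.93 in Leydig cells and -0.64 in stromal cells, a difference of 1.57, and its Leydig ratio was -0.04 once cells that meet 2 class rules were left out. Dhcr7 in Cdk2-HET was at 0.66 in Leydig cells and -0.62 in stromal cells, a difference of 1.28.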

How the results depend on the processing

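Of 465 recomputed counts and median ratios behind the comparisons, 430 were held to be the same as the value reported and 35 were not. A count was held the same within 1.5 times. A median ratio was held the same if it moved by less than the median reach of the members' counting intervals to either side. For the 35 the cause was not tested. Of the values of single members past the test or 1.5-fold, 2 reversed: Hmgcs1 between germ and other somatic classes, at -0.040 without Cdk2-WT and 1.42 without Cdk2-Y15S, and Sc5d in Cdk2-HET Leydig cells, at -0.041 without cells of 2 rules. Of the ratios to Cdk2-WT short of 1.5-fold, 3 of Cdk2-Y15S changed sign and were past it: in Leydig cells Dhcr7 (0.62) and Insig1 (-0.65) without cells of 2 rules, and in myoid cells Lss (0.80) at stricter markers. The Leydig comparison kept 20 to 25 members higher in every alternative and called 2493 genes without cells of 2 rules (4928 with them). Leaving out 1 library in turn gave 2 to 6 members higher in Sertoli than stromal cells (4 with all), 1265 to 3377 genes between myoid and stromal cells (2820), and 0 to 7 members lower in myoid cells (4). That last count was 7 without cells of 2 rules, 8 under the filter of 500 genes and 10% mitochondrial UMIs, 7 scaled to total UMIs and 2 with no replicate block, meaning no library term. The block pairs sums of the same library, and without it the members higher in Leydig cells numbered 25 as before. For Cdk2-Y15S over Cdk2-WT, Leydig members past 1.5-fold numbered 5 higher and 1 lower at 20 UMIs and 6 and 1 without cells of 2 rules (3 and 0 reported). Sertoli members higher numbered 5 with free RNA subtracted and 5 at stricter markers (3). Germ members numbered 1 higher and 8 lower at 20 UMIs, 3 lower at 200 UMIs, 3 lower without cells of 2 rules, and 1 higher and 2 lower under the filter of 500 genes (0 and 5). Myoid members higher numbered 2 without doublets, 2 by mean per-cell CPM, 0 at 200 UMIs and 0 at stricter markers (1), and those lower 1 without mitochondrial genes and 1 at stricter markers (3). For Cdk2-HET over Cdk2-WT, Leydig members higher numbered 4 at 200 UMIs and 5 under the filter of 500 genes (9), and those lower 2 at 20 UMIs and 0 at stricter markers (1). Sertoli members higher numbered 2 by mean per-cell CPM (1), stromal members higher 1 at 200 UMIs (2) and lower 1 by mean per-cell CPM (3), and myoid members lower 0 at 200 UMIs (2). The 226 Leydig cells and the 141 germ cells limit what can be seen: only 19 to 24 members reached 50 UMIs in Leydig sums and 18 in germ sums.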
